A study of Mus musculus with 8 samples.

Results

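The cytosolic ribosomal protein genes were the protein-coding genes whose symbols begin with Rpl or Rps and a digit, together with Rpsa, Rplp0, Rplp1 and Rplp2, without the S6 kinase genes and without symbols that contain "-ps". The rule found 86 of 52661 genes: 52 named for the large subunit, 33 for the small subunit, and Rps19bp1, a nucleolar protein named for binding Rps19 that is not itself a subunit. Their transcripts were measured by RNA sequencing in intraepithelial lymphocytes of C57BL/6 mice, the immune cells that lie between the epithelial cells of the gut, which were sorted by flow cytometry on CD45, the common leukocyte surface protein. The osteopontin cells (4 libraries) were kept with osteopontin at 2 µg/ml, and the null cells (4 libraries) without it; all were cultured for 24 h at 37 C in RPMI medium with 10% serum, so both groups share the sort and the culture. Osteopontin is a secreted phosphoprotein that binds CD44 and integrins, and here it was recombinant. Each group has libraries named 1, 2, A and B, with no word in the labels on the meaning of these names, or on whether a library stands for its own animal or culture. Every p-value therefore sets a difference only against the scatter between these 8 libraries, and that scatter may be technical. The cells were sorted on CD45 alone, so other leukocytes could be among them.

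A ribosome carries each of these proteins once, apart from the acidic proteins of the stalk, and a cell therefore uses them in nearly equal numbers. In mammals most of their mRNAs begin with a C followed by a run of pyrimidines, the terminal oligopyrimidine (TOP) motif, through which mTOR signalling controls their translation and stability. Their short, abundant mRNAs have been copied back into the genome many times, so that many of the genes have processed pseudogenes, and a few copies are still coding genes. In lymphocytes, ribosome production is known to increase when resting cells are activated.

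Library totals ranged from 49108969 to 71399847 estimated reads, and 20225 to 23812 genes had at least 1 read. T cell and intraepithelial lymphocyte markers (20 of 20 tested) summed to between 9007 and 9704 CPM (counts scaled to equal library totals) in osteopontin libraries and between 8766 and 9594 CPM in null libraries. Other cell types differed between single libraries. The sum of fibroblast markers was 354.5 CPM in null library 1 and 199 CPM in null library A, against 7.66 to 29.5 CPM in the other 6. B cell markers summed to 421 CPM in osteopontin library B, against 756 to 1254 CPM elsewhere. Plasma cell markers had much larger sums, from 4027 to 8766 CPM in osteopontin libraries and from 3174 to 9582 CPM in null libraries. In bulk RNA, fewer cells of a type and less RNA per cell cannot be told apart.

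The ribosomal protein genes held several percent of the reads in each of the 8 libraries. They took 3.65%, 3.63%, 3.29% and 3.08% of the reads in osteopontin libraries 1, 2, A and B, against 3.72%, 3.91%, 3.30% and 3.205% in null libraries 1, 2, A and B. Corrected for length, as a share of summed TPM (transcript abundance scaled to a fixed total), this was 9.52% to 11.3% with osteopontin and 9.77% to 11.8% without. The median member stood at 1212 TPM over the 8 libraries, 50 members averaged over 1000 TPM and 9 averaged under 100 TPM.

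Rpl13a, a large subunit protein, was the highest, at 6784, 6806, 5757 and 6044 TPM in osteopontin libraries 1, 2, A and B and at 6935, 6865, 6006 and 6238 TPM in the null libraries. Rps27rt, a coding retrocopy of the small subunit gene Rps27, followed at 5230 ± 631 TPM with osteopontin and 5564 ± 630 TPM without (SD, n = 4 each, as for all such values here). Rplp1 of the stalk stood at 3191 ± 481 TPM with osteopontin and 3074 ± 611 TPM without. Rps24 stood at 2375 ± 218 TPM with osteopontin and 2513 ± 214 TPM without, and Rps15 at 2262 ± 194 TPM with osteopontin and 2322 ± 194 TPM without. Rps24 and Rps15 do not differ beyond their spread.

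The low end of the scale held genes of 3 kinds. Rpl3l, Rpl10l and Rpl39l are copies that in mice are known for expression in muscle (Rpl3l) and testis (Rpl10l and Rpl39l). Rpl3l had 11, 14, 0 and 1 reads in osteopontin libraries and 0, 16, 0 and 0 in null libraries. Rpl10l had 0, 0, 0 and 3 reads with osteopontin and 6, 7, 6 and 5 without. Neither passed the filter on low counts, and several of these values are at or under the floor of 3 reads, which is 0.0420 to 0.0611 CPM at this depth. Rpl39l was listed at 0, 0.0592, 0 and 5.12 TPM in osteopontin libraries 1, 2, A and B and at 1.54, 0, 1.29 and 1.36 TPM in the null libraries, so its detection varied from library to library in both groups. Of the second kind, low in every library, Rpl7l1 stood at 35.4 ± 1.87 TPM with osteopontin and 34.4 ± 1.01 TPM without, and Rps19bp1 at 39.6 ± 7.51 TPM with osteopontin and 39.6 ± 8.12 TPM without.

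The third kind were subunit genes whose reads the authors' quantification had mostly placed on copies elsewhere in the genome. A gene that was not a member was counted as a look-alike when at least 50% of the 31-base words of one of its transcripts also occurred in a member's coding transcripts. Members were not counted as look-alikes of each other. Rps27rt, which shares 80.5% of its words with Rps27, is thus outside the family of Rps27 and does not lower its share. The search found 299 look-alike genes for 72 members, most of them processed pseudogenes. The member itself held over 90% of the reads of its family (member and look-alikes) for 70 genes and under 50% for 7. Rpl5 held 3.45%, Rps12 7.85%, Rpl27 9.64%, Rpl12 9.88%, Rpl10 32.1%, Rpl27a 38.1% and Rps23 38.4%. With the look-alikes added, the mean of Rpl5 over the 8 libraries became 1623 TPM in place of 50.95 TPM, that of Rpl12 2500 in place of 158.5 TPM and that of Rps12 1796 in place of 81.4 TPM. Over all 86 members, the 2 untested ones included, the 10th percentile was 459 TPM with look-alikes, against 98.9 TPM without.

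**Figure D1:**
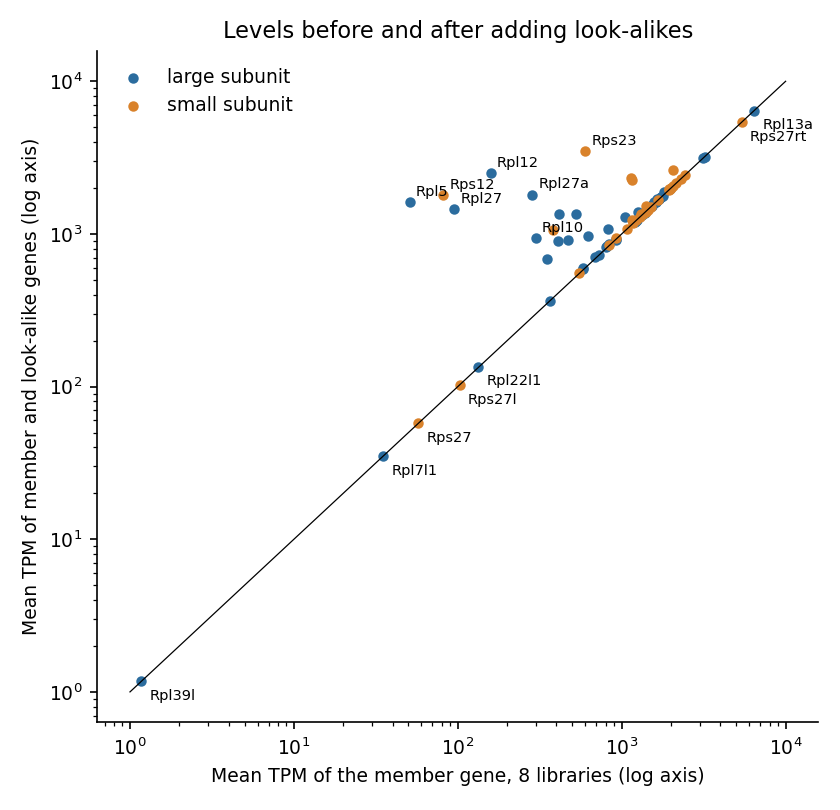
Mean TPM over the 8 libraries of each tested subunit gene (horizontal, log axis) against the mean TPM of the gene and its look-alikes (vertical, log axis), with a line where both are equal. Rpl5, Rps12, Rpl27 and Rpl12 lie far above the line, each over 1000 TPM with its look-alikes, while Rpl7l1, Rps27l, Rpl22l1 and Rps27 stay on the line. Reads of Rps27rt, itself a member, were not added to Rps27.

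The copies concerned can hold the member's coding sequence letter for letter, and reads within that length match both genes. All 891 coding bases of Rpl5 (GRCm38 chromosome 5, 107900502 to 107909005) stood whole in AC110186.1, a transcribed processed pseudogene on chromosome 7 (114705217 to 114706235), and all 642 coding bases of Rpl10 (chromosome X, 74270812 to 74273135) stood whole in an intronless gene on chromosome 9 (50344201 to 50344968) that is called Rpl10-ps3 in GENCODE M21 and annotated as protein-coding there. Rps27 (chromosome 3, 90212522 to 90213651) and Rps27rt (chromosome 9, 114982366 to 114982739) had 0 differences over the 246 coding bases compared. The first 60 compared bases of both pairs are shown, from GENCODE M21, because the values of Rpl10 and Rps27 below depend on this split.
Rpl10: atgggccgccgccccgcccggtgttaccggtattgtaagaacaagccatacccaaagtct
Rpl10-ps3: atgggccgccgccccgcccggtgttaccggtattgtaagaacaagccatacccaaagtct
Rps27: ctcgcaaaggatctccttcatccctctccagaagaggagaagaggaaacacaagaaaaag
Rps27rt: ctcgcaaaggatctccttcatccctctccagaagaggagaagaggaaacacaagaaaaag
Each pair is identical over these bases. In the chosen Rps27 transcript the annotated coding sequence begins without its start codon, so the Rps27rt stretch shown begins at its coding base 7.

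With osteopontin, no ribosomal protein gene differed from the null libraries past the threshold. In edgeR's quasi-likelihood test 0 of 84 tested members were higher and 0 lower at an adjusted p under 0.05, as were 0 of all 18631 tested genes in either direction (0%). At an unadjusted p under 0.05, 1 member was higher (Rpl10) and 1 lower (Rpl21), where 1.85% of all genes were higher and 2.08% lower, so the members' shares were near the background. Groups did not overlap for 1 member that was higher (Rpl10) and 2 that were lower (Rps25 among them), against 1.89% and 1.58% of all genes. The 95% interval of the fold change lay within a 1.5-fold change in either direction for 79 of the 84 members.

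The fitted fold changes of the members were mostly slightly below 0. Their log2 fold changes, osteopontin over null, were negative for 66 members and positive for 18, with a median of -0.06 beside 0.00 for all tested genes. The median was -0.06 for the 50 tested large subunit genes and -0.05 for the 33 small subunit genes. The members' share of reads averaged 3.41% ± 0.278 with osteopontin and 3.53% ± 0.336 without, a difference smaller than either SD. Both summaries moved when single libraries were left out, which also leaves the groups with unequal numbers of letter and digit names. Without null library 2 the median was -0.0048 and the difference in share 0.00175 percentage points, with its sign turned; without osteopontin library B they were -0.02 and -0.0113 percentage points. Without osteopontin library 1 or 2, or null library A or B, the median was -0.09, -0.09, -0.09 and -0.10, and without osteopontin library A or null library 1 it was -0.04 and -0.05. Within the libraries named with letters the share averaged 3.18% with osteopontin and 3.25% without, and within those named with digits 3.64% with osteopontin and 3.815% without (n = 2 each), a split added after the values were seen. With letter or digit name as a second term, 6 members were lower and 1 higher at an unadjusted p under 0.05 (2.42% and 2.17% of genes), and 0 passed after adjustment.

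**Figure D2:**
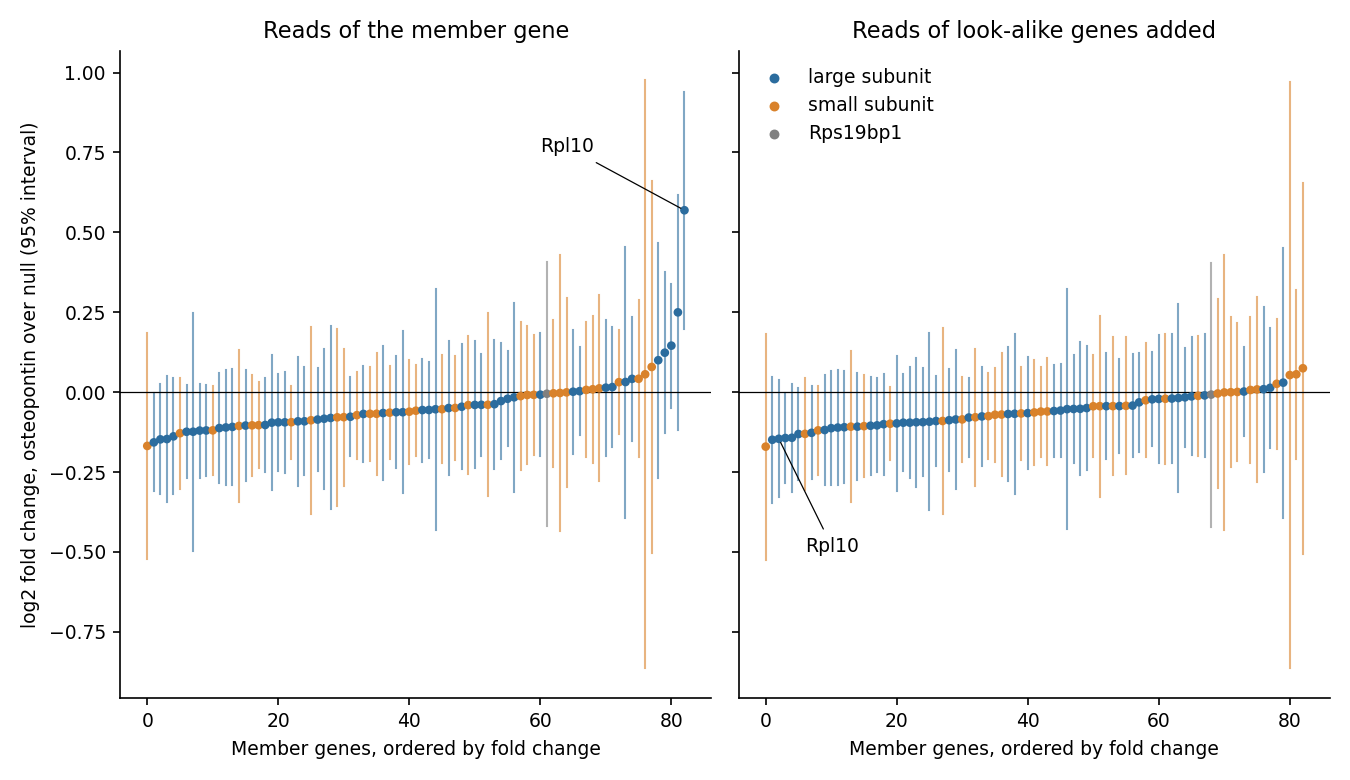
Log2 fold change of 83 tested members, osteopontin over null, with 95% intervals from edgeR, ordered by size, from each gene's own reads (left) and with look-alike reads added (right); Rpl39l, whose interval runs from -4.28 to 3.71, is left out. Rpl10 is the highest point on the left at 0.57 and lies at -0.15 on the right.

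Among the proteins with known roles beyond the ribosome's core, levels in the groups lay close together. Rps6, the substrate of S6 kinase, stood at 1495, 1341, 1248 and 1424 TPM in osteopontin libraries and at 1479, 1517, 1421 and 1397 TPM in null libraries (log2 fold change -0.10, SE 0.06, edgeR adjusted p = 1.00). The groups overlapped. Rpl11, which with Rpl5 and the smallest large-subunit RNA binds Mdm2 when ribosome assembly is disturbed, stood at 1204 ± 112.5 TPM with osteopontin and 1293 ± 68.2 TPM without (log2 fold change -0.12, SE 0.07). Rps19, the gene mutated most often in human Diamond-Blackfan anaemia, stood at 1143 ± 112 TPM with osteopontin and 1204 ± 74.3 TPM without (log2 fold change -0.13, SE 0.08). The stalk genes, whose products recruit elongation factors, stood at 1316 ± 124 TPM with osteopontin and 1329 ± 156 TPM without for Rplp0, and at 1361 ± 136 TPM with osteopontin and 1401 ± 226 TPM without for Rplp2. For each of these genes the difference was smaller than the SD of at least 1 group. Each SD also holds the difference between letter and digit names given below, so it is a wide measure of the scatter.

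The members with the smallest p in the lower direction included Rpl21, Rps25, Rpl29, Rpl7 and Rpl7a. Rpl21, a large subunit protein, stood at 812, 806, 780.1 and 738 TPM in osteopontin libraries 1, 2, A and B and at 838, 951.5, 779 and 891 TPM in the null libraries. Null library A was the lowest of its group and lay within the osteopontin range. The log2 fold change of Rpl21 was -0.16 (95% interval -0.31 to -0.00; edgeR unadjusted p = 0.0457, adjusted p = 1.00). Rps25, known for its part in translation from internal entry sites, stood at 299.9, 311, 307 and 266 CPM with osteopontin and at 314, 342, 311.2 and 319 CPM without. Null library A, the lowest of its group, lay just above osteopontin library 2, and the log2 fold change was -0.12 (SE 0.07). Log2 fold changes were -0.15 for Rpl29, -0.12 for Rpl7 and -0.12 for Rpl7a, each with an edgeR adjusted p of 1.00 when rounded and with overlapping groups.

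In the higher direction the smallest p belonged to Rpl10, Rpl10a, Rpl27, Rpl31, Rpl12 and Rpl27a. Each of these 6 held only part of the reads of its family, from 9.64% for Rpl27 to 59.5% for Rpl10a. The log2 fold changes other than that of Rpl10 were 0.15 for Rpl10a, 0.25 for Rpl27, 0.12 for Rpl31, 0.10 for Rpl12 and 0.04 for Rpl27a, with overlapping groups. With look-alike reads added, those of Rpl10a, Rpl31, Rpl12 and Rpl27a became -0.03, -0.04, -0.02 and -0.02, and that of Rpl27 became 0.0092. Of the 16 tested members that held under 90% of their family's reads, 8 were fitted higher and 8 lower, while of the 68 that held at least 90%, 10 were fitted higher and 58 lower. With look-alike reads added to every member, 73 of 84 were fitted lower and 11 higher, the largest log2 fold change was 0.07, and 1 was lower and 0 higher at an unadjusted p under 0.05 (2.15% and 1.81% of all genes).

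Rpl10, a late-joining protein of the large subunit, had the smallest p of all members by its own reads. It had 7583, 8814, 6462 and 8450 reads in osteopontin libraries 1, 2, A and B, against 4705, 6327, 5187 and 6280 reads in the null libraries. Scaled for depth this was 130 ± 29.8 CPM with osteopontin and 87.4 ± 12.7 CPM without, and every osteopontin library lay above every null library. The log2 fold change was 0.57 (SE 0.16, 95% interval 0.20 to 0.94; edgeR unadjusted p = 0.00709, adjusted p = 1.00). DESeq2 called it higher (adjusted p = 0.0383). It was the 1 member DESeq2 called, beside 0.104% of genes called higher and 0.291% called lower.

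The copy with the identical coding sequence was fitted in the opposite direction. Rpl10-ps3 stood at 268, 199, 214 and 112 CPM with osteopontin (libraries 1, 2, A and B), against 313, 299, 258 and 238 CPM in null libraries of the same names (log2 fold change -0.48, SE 0.26, edgeR adjusted p = 1.00). The sum of both was 328 ± 37.05 CPM with osteopontin and 364 ± 36.8 CPM without, a difference no larger than the SD. Rpl10 held 28.5%, 39.5%, 34.2% and 60.5% of that sum in osteopontin libraries and 20.7%, 25.0%, 21.9% and 28.8% in null libraries. Osteopontin library 1 and null library B were alike in this share, and osteopontin library B stood apart from all others. With all look-alike reads added, the log2 fold change of Rpl10 was -0.15 (SE 0.09, edgeR unadjusted p = 0.110, adjusted p = 1.00).

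**Figure D3:**
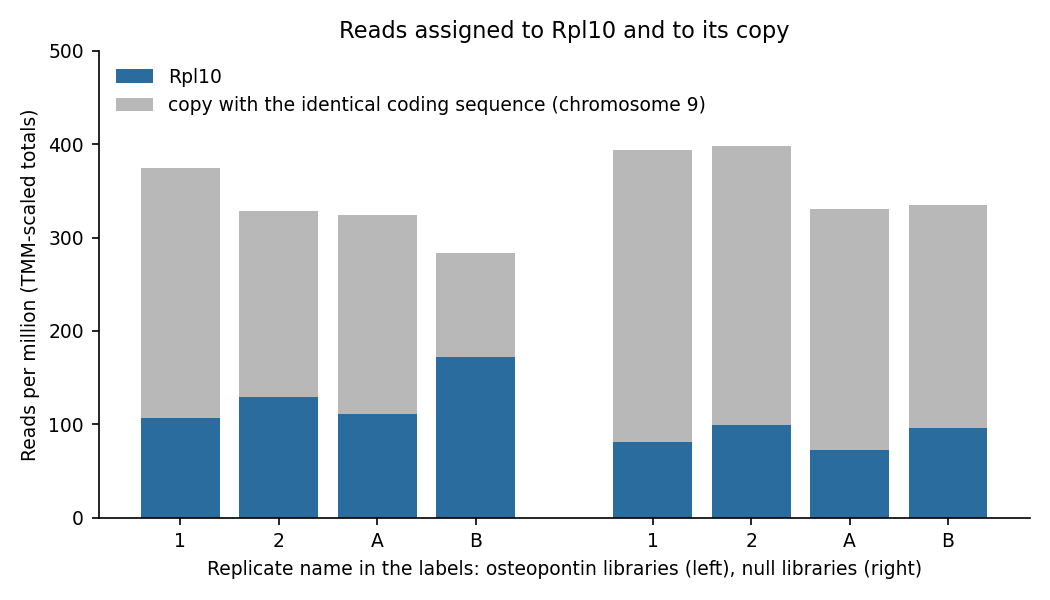
CPM on TMM-scaled totals assigned to Rpl10 (dark) and to its copy with the identical coding sequence (grey), stacked per library, osteopontin libraries on the left and null libraries on the right. The dark bars are all higher on the left (107 to 172) than on the right (72.4 to 99.4), while the full bars span 284 to 374 on the left and 331 to 398 on the right.

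Some ribosomal protein genes have a related gene, and the balance of such a pair can differ between tissues. Of the 6 pairs compared, not all are alternative copies of a subunit gene. Rplp1 and Rplp2 encode different proteins of the stalk, and Rpl7l1 acts in ribosome assembly. The percent of the pair's summed TPM on the gene named first below was compared with an exact permutation test (two-sided). The test ran over all 70 arrangements of the libraries, and 0 pairs passed after adjustment over the 6. Rpl22, which in mice is needed for alpha-beta but not gamma-delta T cell development, has the copy Rpl22l1. Rpl22l1 made up 14.9%, 13.9%, 12.6% and 16.8% of the pair in osteopontin libraries and 14.1%, 16.8%, 16.9% and 18.5% in null libraries, averaging 14.5% ± 1.80 with osteopontin and 16.6% ± 1.82 without (exact permutation p = 0.171, adjusted p = 0.343). The groups overlapped.

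Rpl7l1, a relative of Rpl7 with a known role in ribosome assembly, made up 2.77%, 2.79%, 3.30% and 2.84% of its pair with osteopontin and 2.66%, 2.64%, 2.73% and 2.61% without. No null library reached the lowest osteopontin value (2.93% ± 0.254 with osteopontin, 2.66% ± 0.0502 without), which gives the smallest p that these arrangements allow (exact permutation p = 0.0286, adjusted p = 0.171); as a share of reads in place of TPM the p was 0.0571 (exact permutation). Rpl36al made up 45.8% ± 1.87 of its pair with Rpl36a with osteopontin and 48.5% ± 3.55 without (exact permutation p = 0.257, adjusted p = 0.386). Rplp2 made up 30.0% ± 1.43 of its pair with Rplp1 in osteopontin libraries and 31.4% ± 1.07 in null libraries (exact permutation p = 0.114, adjusted p = 0.343).

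Rps27 has the copies Rps27l, which in human cells is induced by p53, and Rps27rt. Rps27 itself was among the most variable members: it was listed at 89.98, 39.1, 44.3 and 40.5 TPM in osteopontin libraries 1, 2, A and B and at 56.1, 30.3, 138.9 and 18.7 TPM in the null libraries. Osteopontin library 1 and null library A were the highest. Rps27l was steadier, at 105, 104, 69.3 and 108 TPM with osteopontin and 122, 109, 115.5 and 89.5 TPM without. Rps27rt held 98.99% ± 0.400 of its pair with Rps27 with osteopontin and 98.9% ± 1.02 without (exact permutation p = 0.914, adjusted p = 0.914), and Rps27l 65.0% ± 9.32 with osteopontin and 68.7% ± 16.7 without (exact permutation p = 0.714, adjusted p = 0.857). Since the coding bases of Rps27 and Rps27rt are identical, the split between them is uncertain.

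Several members had much of their signal on transcripts annotated as not coding (retained intron, nonsense-mediated decay or processed transcript). Over all members these took 7.28%, 8.14%, 8.30% and 9.04% of the members' reads in osteopontin libraries 1, 2, A and B, against 7.58%, 7.48%, 7.72% and 8.40% in the null libraries. The means were 8.19% ± 0.723 with osteopontin and 7.795% ± 0.416 without, and the groups overlapped. The share over the 8 libraries was highest for Rpl12 at 94.99%, Rps12 at 78.3%, Rps27 at 68.8%, Rps16 at 64.6% and Rpl5 at 61.1%, and 4 of these 5 were also genes whose look-alikes held over 30% of the family's reads. The exception was Rps27, whose copy Rps27rt is a member and so was not counted as a look-alike. Rpsa, also known as the laminin receptor, had 50.8% there and held over 99% of its family's reads.

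Other genes of the translation apparatus were read in the same fit. The TOP companions, genes other than ribosomal proteins whose mRNAs are known to carry the motif, had log2 fold changes with a median of -0.07 with osteopontin, and 19 of 21 were fitted lower, 0 of them at an unadjusted p under 0.05. The 60 ribosome assembly factors had a median of 0.01, with 31 fitted higher and 29 lower. Translation initiation and elongation factors (35 genes) had a median of -0.04, genes of RNA polymerase I and ribosomal DNA transcription (21) -0.03, genes of mTOR, S6 kinase and TOP mRNA control (35) 0.03, snoRNA host genes (14) 0.03, genes acting on stalled ribosomes (19) 0.02, and the 4 ubiquitin-fusion and ribosome-bound genes (Fau, Naca and Btf3 among them) -0.10. In these 8 lists 0 genes passed the test in either direction by edgeR, and 4 were higher and 5 lower at an unadjusted p under 0.05 (1.85% and 2.08% of all tested genes). The nearest in their lists were Mdn1, an assembly factor (160 ± 18.9 CPM with osteopontin and 134 ± 10.1 CPM without, log2 fold change 0.26), Rictor, a partner of mTOR (309 ± 18.5 CPM with osteopontin and 261 ± 28.5 CPM without, 0.25), and Polr2f, a shared polymerase subunit (18.4 ± 3.09 CPM with osteopontin and 25.1 ± 1.44 CPM without, -0.45), each with an edgeR adjusted p of 1.00 when rounded.

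Mitochondrially encoded transcripts, fibroblast markers and inducible stress genes were mostly fitted lower with osteopontin, with 0 of them past the threshold by edgeR and 7, 7 and 3 of them lower at an unadjusted p under 0.05. Over all tested genes 2.08% were lower at that p. B cell markers were also fitted lower for 12 of 12 (median log2 fold change -0.39, 1 of them at that p). Endothelial markers were fitted lower for 8 of 9 (median -0.66, 0 at that p), and enterocyte markers were fitted higher for 9 of 15. The 13 mitochondrial coding genes summed to between 10840 and 17130 CPM with osteopontin and between 16410 and 22310 CPM without, the 12 stress genes to between 294 and 484 CPM with osteopontin and between 471 and 527 CPM without, and the fibroblast markers are given above (11 of 11 tested fitted lower). Without null libraries 1 and A, which held the fibroblast transcripts, the members' median was -0.08. Against protein-coding reads without mitochondrial genes the members took 3.66% ± 0.297 with osteopontin and 3.805% ± 0.350 without. The part of these transcripts in the members' values was not tested.

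The libraries also divided along the replicate names. In both groups the libraries named with letters had lower levels of ribosomal protein transcripts than the libraries named with digits. Osteopontin libraries A and B had 3.29% and 3.08% of their reads on the members, and null libraries A and B had 3.30% and 3.205%, against 3.65%, 3.63%, 3.72% and 3.91% in the 4 digit libraries. These sets do not overlap, and average 3.22% ± 0.102 in letter libraries and 3.73% ± 0.126 in digit libraries (SD, n = 4 each). Between 10 and 18 of the 84 tested members lay above their own mean over the 8 libraries in each letter library, against 66 to 79 in each digit library. Depth did not divide the libraries in this way: letter libraries held 49108969 to 71399847 reads and digit libraries 57492806 to 71292125. Genes with at least 1 read numbered 20225 to 22997 in letter libraries and 21910 to 23812 in digit libraries. Transcripts annotated as not coding took 8.36% ± 0.540 of the members' reads with letter names and 7.62% ± 0.369 with digit names. For retained introns alone the shares were 3.15% ± 0.363 and 2.63% ± 0.121. The part of these measures in the members' difference was not tested.

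**Figure D4:**
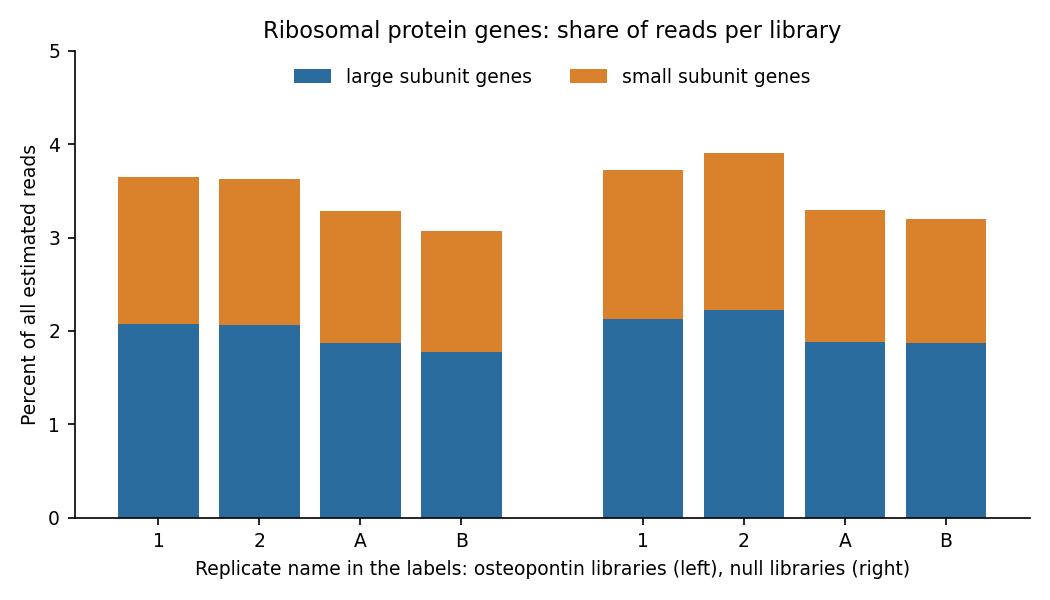
Percent of all estimated reads on large subunit genes (lower part of each bar) and small subunit genes (upper part), per library, osteopontin libraries on the left and null libraries on the right. In both groups the bars of libraries 1 and 2 (3.63% to 3.91% in all) stand above those of libraries A and B (3.08% to 3.30%).

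The comparison of letter with digit names was added after these values were seen, with osteopontin as a second term in the edgeR fit. The median log2 fold change of the members, letter over digit, was -0.20, beside -0.01 for all genes. Of the 84 tested members 76 were fitted lower and 8 higher. At an unadjusted p under 0.05, 61 were lower and 0 higher, against 4.12% and 3.10% of all 18631 genes, and 50 were lower and 0 higher without overlap, against 3.27% and 2.04% of all genes. After adjustment over all genes 0 members passed (5 genes passed in all, 0.0268%, each lower), and the smallest adjusted p of a member was 0.0667. Leaving out single libraries moved this count: without osteopontin library A 10 members were lower past the threshold (0.101% of all genes), and without null library A 2 were (0.0308%). The other 6 omissions gave 0 (0.0103%, 0.0103% and 0.0151% of genes without osteopontin libraries 1, 2 and B, and 0.0154%, 0.00512% and 0.0253% without null libraries 1, 2 and B), and over all 8 the median ran from -0.22 to -0.18.

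The direction was the same in each group taken alone. The comparison was chosen after the members' shares had been seen to differ this way in both groups. These fits therefore describe the size in each group and are no separate support. Within the osteopontin libraries the median was -0.18, with 37 of 83 members lower at an unadjusted p under 0.05 (2.91% of genes) and 0 higher (2.97%), and within the null libraries it was -0.20, with 52 of 83 lower (2.79% of genes) and 0 higher (2.56%). A term for the difference between these effects gave 0 members past the threshold by edgeR and 1 higher and 0 lower at an unadjusted p under 0.05 (1.25% and 1.85% of genes). With look-alike reads added, 80 of 84 were fitted lower and 69 had an unadjusted p under 0.05 (4.11% of genes), while 0 were higher at that p (3.11% of genes). An offset for the effective length of each gene in each library, the length over which its fragments can start, left 55 lower (3.29% of genes) and 0 higher (2.59%) at an unadjusted p under 0.05.

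Rps10, a small subunit protein, had the smallest p. It stood at 392, 331, 371 and 346 CPM in osteopontin A, osteopontin B, null A and null B, and at 465, 458, 463 and 467 CPM in osteopontin 1, osteopontin 2, null 1 and null 2. The 4 digit libraries lay close together, and each letter library lay well below all of them. The log2 fold change, letter over digit, was -0.36 (SE 0.06, edgeR adjusted p = 0.0667). Rps9 stood at 677 ± 51.2 CPM with letter names and 862 ± 30.6 CPM with digit names (-0.35), Rps15a at 411 ± 47.4 CPM with letter names and 555 ± 19.3 CPM with digit names (-0.43), Rps18 at 486 ± 20.4 CPM with letter names and 596 ± 26.0 CPM with digit names (-0.29), and Rpl39 of the exit tunnel at 196.5 ± 16.3 CPM with letter names and 261 ± 19.4 CPM with digit names (-0.41), each without overlap and with an edgeR adjusted p between 0.0848 and 0.108. Rps14, whose loss in human bone marrow underlies the anaemia of a myelodysplastic syndrome, had the largest fitted difference among members past an unadjusted p of 0.05: 501 ± 76.2 CPM with letter names and 732.5 ± 37.3 CPM with digit names (-0.55, SE 0.10, edgeR adjusted p = 0.112).

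The 3 stalk genes were all fitted lower, without overlap. Rplp0 stood at 943 ± 56.9 CPM in letter libraries and 1141 ± 52.6 CPM in digit libraries (-0.28), Rplp1 at 560.5 ± 71.3 CPM with letter names and 749 ± 27.0 CPM with digit names (-0.42), and Rplp2 at 348 ± 27.5 CPM with letter names and 443.5 ± 22.4 CPM with digit names (-0.35), each with an edgeR adjusted p of 0.108. Rpl13a, the highest member, stood at 1370.0 ± 85.0 CPM with letter names and 1611 ± 31.7 CPM with digit names (-0.23). Some members had smaller fitted differences in the same direction. Rps6 stood at 643.5 ± 35.7 CPM with letter names and 691 ± 39.6 CPM with digit names (-0.10, edgeR adjusted p = 0.733). Rpl4 stood at 1082 ± 52.5 CPM with letter names and 1151 ± 44.3 CPM with digit names (-0.09, edgeR adjusted p = 0.7495). The members fitted higher in letter libraries included Rpl39l, Rpl5, Rpl12, Rps27, Rpl10, Rps12 and Rps19bp1, of which 4 (Rpl5, Rpl12, Rpl10 and Rps12) held under 50% of their family's reads.

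**Figure D5:**
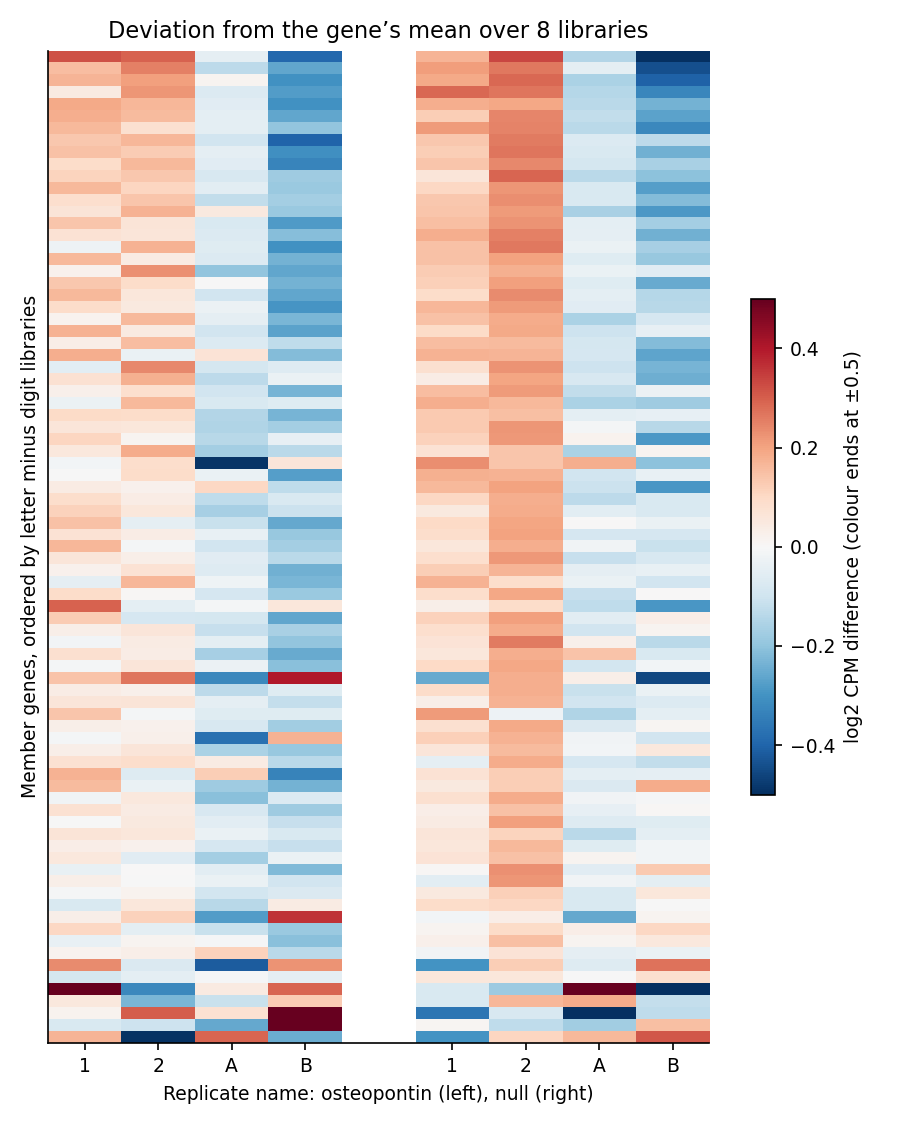
Deviation of log2 CPM from the gene's mean over the 8 libraries for 83 tested members (rows, not named, without Rpl39l; red higher, blue lower), osteopontin libraries on the left and null libraries on the right. Rows are ordered by the difference between letter and digit libraries, so their order is not a finding. Columns 1 and 2 are mostly red and columns A and B mostly blue in both groups, with the lowest median deviation in osteopontin library B (-0.18) and the highest in null library 2 (0.18).

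Genes outside the rule differed to unequal extents between the names. All 4 ubiquitin-fusion and ribosome-bound genes were lower at an unadjusted p under 0.05 (median -0.28). Of the 21 TOP companions 19 were fitted lower (median -0.14), with 12 lower and 1 higher at an unadjusted p under 0.05; they include these 4 genes and Eef1a1, the elongation factor, at 5890.0 ± 242 CPM with letter names and 6877 ± 337 CPM with digit names (-0.22, edgeR adjusted p = 0.108). The translation factors had a median of -0.02 and the RNA polymerase I genes -0.03. The ribosome assembly factors lay on the other side, with 45 of 60 fitted higher, a median of 0.07, and 6 higher and 1 lower at an unadjusted p under 0.05. Gnl2, an assembly GTPase, had the smallest p of that list at 71.2 ± 3.56 CPM with letter names and 57.9 ± 0.737 CPM with digit names (0.30, edgeR adjusted p = 0.316). Over all tested genes 4.12% were lower and 3.1% higher at an unadjusted p under 0.05 by edgeR. No gene of these 8 lists passed the threshold by edgeR.

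Some markers of other cell types also differed between the names, and Itgax was the 1 marker past the threshold by edgeR. Of 14 macrophage and dendritic cell markers 11 were tested, and 9 of these were fitted lower in letter libraries. The sum of the 14 ranged from 97.2 to 165 CPM in letter libraries and from 180.4 to 210.4 CPM in digit libraries, and Itgax, which encodes CD11c, was 1 of the 5 genes that passed (78.0 ± 8.63 CPM with letter names and 115 ± 9.14 CPM with digit names, log2 fold change -0.56, edgeR adjusted p = 0.0487). C1qa, C1qb and C1qc were not tested, with at most 36 reads in a library. The T cell and intraepithelial markers summed to between 8766 and 9285 CPM in letter libraries and between 9085 and 9704 CPM in digit libraries, with 14 of 20 fitted lower, 4 of them at an unadjusted p under 0.05, and 1 higher at that p. B cell markers were fitted lower for 11 of 12, 0 of them at an unadjusted p under 0.05. Endothelial markers were fitted higher for 9 of 9 (median log2 fold change 1.30, 0 at an unadjusted p under 0.05), goblet and Paneth markers for 4 of 4 (median 2.12, 2 at that p), enterocyte markers for 9 of 15 (3 at that p, and 1 lower) and inducible stress genes for 10 of 11 (0 at that p, and 1 lower). The goblet and Paneth sum was 90.5 CPM in null library B. It was 6.41 to 13.7 CPM in the other letter libraries and 4.57 to 7.35 CPM in digit libraries. Endothelial sums overlapped, at 94.0 to 173.5 CPM with letter names and 69.7 to 170.3 CPM with digit names. Over all tested genes 4.12% were lower and 3.1% higher at an unadjusted p under 0.05 by edgeR. The part of these cells in the members' difference was not tested.

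The starts of the members' genes were searched for the TOP motif, because the companions known to carry it were also mostly fitted lower in letter libraries. A run was counted where a C and at least 6 further C or T bases without interruption began within 15 bases of the start given by RefSeq (GRCm38.p6), on the transcribed strand only. Of the 66 members with a start window 31 (47%) held such a run, against 18.2% of all 27025 genes with a window, 7 of 14 TOP companions (50%) and 6 of 54 assembly factors (11.1%). The 40 bases around the start, 20 before it and 20 from it on, are shown for the pair of members with the smallest p between the names, for the highest member, for Rps6, for Rplp0, which holds no run by this rule, and for Rpl22l1; capitals mark the run.
Rps10 (chr17:27635225-27635264, minus strand): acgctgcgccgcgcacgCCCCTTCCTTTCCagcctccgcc
Rps9 (chr7:3704021-3704060, plus strand): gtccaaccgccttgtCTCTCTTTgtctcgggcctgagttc
Rpl13a (chr7:45128726-45128765, minus strand): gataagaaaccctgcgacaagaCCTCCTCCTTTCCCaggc
Rps6 (chr4:86857348-86857387, minus strand): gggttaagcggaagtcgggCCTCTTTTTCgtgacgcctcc
Rplp0 (chr5:115559447-115559486, plus strand): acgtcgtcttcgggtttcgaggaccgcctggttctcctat
Rpl22l1 (chr3:28805488-28805527, plus strand): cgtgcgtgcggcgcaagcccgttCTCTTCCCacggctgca
The runs are 13 bases long in Rps10, 8 in Rps9, 14 in Rpl13a, 10 in Rps6 and 8 in Rpl22l1. The presence of a run by this rule did not divide the members in either comparison: the median log2 fold change, letter over digit, was -0.20 for the 31 tested members with a run and -0.19 for the 33 without, and with osteopontin it was -0.08 and -0.05. The rule found a run in only 7 of the 14 companions known to carry the motif. Members without a run may therefore still carry it, and these medians cannot decide on the motif itself. A match is a description of these letters, and a start site in these cells was not measured.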

How the data were processed

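Total RNA of the 8 libraries was sequenced as stranded Illumina libraries, per the labels' protocols. The submitters' processing notes name Salmon. Its version, the transcript release and the build were not given in the sources used here. Per the file headers, the authors deposited estimated counts (reads assigned to each transcript), TPM and effective lengths for 133618 transcripts. For each gene the estimated counts of its transcripts were added and then rounded, and TPM was added likewise. The members and lists were chosen with earlier results of these data known.

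Genes passing filterByExpr (minimum count 10) were tested with edgeR 4.0.16 (TMM, robust quasi-likelihood F test, two-sided), adjusted by Benjamini-Hochberg over all 18631, with a threshold of 0.05. The group was the only term; the names were a term only where stated. The code was tested on simulated data. CPM of members and of genes are on TMM-scaled totals, marker sums on plain totals. SE is the fold change over the square root of F. DESeq2 1.42.0 and limma 3.58.1 (voom) were alternatives, beside other filters, scalings, omissions of libraries, and reads of pseudogenes or look-alikes added. Intervals of fold changes cover the spread between these libraries, and floors of 3 reads cover counting error only.

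Sequences and positions came from GENCODE M21 (GRCm38), where 469 of the 485 member transcripts matched by versioned identifier, and from RefSeq. Salmon divides reads among near-identical copies, so single copies are uncertain. Named members were the 6 highest and 6 lowest by TPM, the 6 with the smallest p in each direction, the 3 most and least variable, related pairs, and the stalk genes, Rps6, Rpl5, Rpl11, Rpl22, Rps14 and Rps19; from each list, the gene with the smallest p. Members named in the comparison of letter with digit names, and Rps16, Rpsa and Rps23, were chosen after their values were seen, as were the companions Eef1a1 and Itgax. Some genes that these rules select are not reported here.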

Additional observations from a re-analysis of the deposited data

Results flagged for a closer look

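Single libraries stood far from the other 3 of their group in 8 of 96 groups of 4 examined. The rule flags about 1 in 20 groups by chance, but the 8 cannot be set against that rate. The members examined include those named for the largest spread in these data, and the pair shares reuse members' values. Rpl39l stood at 5.12 TPM in osteopontin library B and was listed at 0 in null library 2. Rpl4 stood at 1127 TPM in osteopontin library A and Rps25 at 1158 TPM in osteopontin library B, both lowest of their group. Rps27 stood at 89.98 TPM in osteopontin library 1, the highest of its group, and Rps27l at 69.3 TPM in osteopontin library A, the lowest. Rpl7l1 made up 3.30% of its pair with Rpl7 in osteopontin library A, and Rplp2 32.2% of its pair with Rplp1 in osteopontin library B, both highest of their group.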

How the results depend on the processing

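The members' median log2 fold change, osteopontin over null, was below 0 in all 22 alternatives, from -0.0974 to -0.00484, and 0 members passed the threshold except Rpl10 by DESeq2. Over all genes, DESeq2 called 21 higher and 59 lower, the fit with no filter on low counts 3 and 1, and the fit without both B libraries 1 and 48; leaving out single libraries gave 0 to 2 higher and 0 to 35 lower, the 2 and 35 without osteopontin library B. DESeq2 called 1 member higher. Of 40 named fold changes, 21 changed sign in at least 1 alternative and 1 was called in any. With look-alike reads added, Rpl10, Rpl10a, Rpl12, Rpl27a and Rpl31 turned to -0.146, -0.0320, -0.0163, -0.0201 and -0.0435, and with pseudogene reads added Rpl10a and Rpl31 to -0.0297 and -0.0414. Without both B libraries Rpl12 and Rpl27a turned to -0.0507 and -0.00975; leaving out single libraries, Rpl12 ran from -0.117 to 0.192 and Rpl27a from -0.0296 to 0.1175. Rps27rt as a share of its pair with Rps27 turned to -0.577 percentage points without null libraries 1 and A and to -0.232 by reads, and ran from -0.403 to 0.334 when single libraries were left out; Rps27l ran from -11.5 to 0.987. Between letter and digit names, the members past the threshold ran from 0 to 10 when single libraries were left out, and the members at an unadjusted p under 0.05 were 37 within the osteopontin libraries. The causes were not tested. The deviations of same-named osteopontin and null libraries correlated at 0.071, 0.049, 0.044 and 0.123 (names 1, 2, A and B). Not all of these passed the cut-off used, so the main fit did not pair the samples by name. All were positive, and all 4 osteopontin libraries and 3 of 4 null libraries correlated best with their own name, so pairing by name is not excluded. With the name as a replicate block the members' median was -0.06, 0 members passed, and 9 were lower and 1 higher at an unadjusted p under 0.05 (2.87% and 2.49% of genes). Depth limited Rpl3l, Rpl10l and Rpl39l.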
